A study of Homo sapiens with 2 samples.

Results

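The 8 genes described here were chosen by name as receptors and regulators of the traffic of T cell progenitors into and out of the thymus, out of 36601 genes in the deposited tables. They are *CCR9*, *CCR7*, *CXCR4*, *CXCR3*, *CCR4*, *S1PR1*, *SELPLG* and *KLF2*. The cells came from H1, an established human embryonic stem cell line, with no other genotype or agent given in the labels. Its blood progenitors were made by 12 days of hematopoietic differentiation and then grown on OP9 feeder cells, which the study's methods give as OP9-DLL4, a mouse stromal line that presents the Notch ligand DLL4. CD7+ cells were sorted after 10 and after 14 days of this co-culture, and each day gave 1 droplet-based single-cell library. Day and library therefore cannot be told apart, no replicate spread exists, and no p-value is given.

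Transcripts were counted as UMIs (unique molecular identifiers, which mark captured molecules). A barcode was kept as a cell if it had 1000 to 7000 detected genes and no more than 18% of its UMIs from mitochondrial genes. The 12114 day 10 cells kept had a median of 16173.5 UMIs and held 96.3% of their library's UMIs. For the 8929 day 14 cells the median was 15029 UMIs and the share 90.7%. The kept cells of both libraries shared 29 barcodes. The sort marker *CD7* had a UMI in 48.8% of the earlier cells and 66.8% of the later ones after each cell was thinned to 5000 UMIs, which left out 291 and 382 shallower cells. All 7 T cell markers stood at 10 CPM or more on both days. Levels are given as CPM, counts per 1e6 UMIs, with the UMIs of a gene and of all genes summed over the cells of a group, with exact Poisson 95% intervals, and ratios have exact conditional binomial intervals. Both cover counting error only. A level summed over a whole library cannot tell fewer cells of a type from less RNA per cell. A gene was called higher or lower when its log2 ratio passed 2-fold after 5 CPM had been added to both levels, and only genes that reached 5 CPM in either group were tested. Levels are compared between groups for 1 gene at a time and never between genes.

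Lymphoid progenitors leave the blood for the thymus by rolling on selectins and by following chemokines made by the thymic stroma. PSGL-1, the product of *SELPLG*, binds P-selectin, while CCR9, CCR7 and CXCR4 sense the chemokines CCL25, CCL19 and CCL21, and CXCL12. Mature thymocytes leave again along a gradient of sphingosine 1-phosphate (S1P), which is sensed by S1PR1, and the zinc finger factor KLF2 is known as an activator of the *S1PR1* gene in T cells.

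Because KLF2 belongs to the Krüppel-like factors, which are known to bind CACCC boxes, upstream sequences of *KLF2* and of *CXCR3* and *S1PR1*, whose levels followed it, are shown with these letters in capitals. They were taken from RefSeq (GRCh38.p14) on the strand of the gene, and CACCC and its reverse complement GGGTG were both searched. Of 35116 RefSeq promoters 54.7% held a match in the 250 bases before the start, so a match is common. The windows of the other genes searched held matches too, counted without overlap. There were 1 or 2 in each of the 3 windows of *CXCR4*, 2 in each of the 2 windows of *CCR9* and 2 in the *CCR4* window. Day 14 cells with more *KLF2* UMIs had lower *CXCR4* and higher *CCR9* levels, as given below. For *CCR7* and *SELPLG* no window was searched. The *CXCR3* window (chrX:71618512-71618761, minus strand) held 1 match and the *KLF2* window (chr19:16324576-16324825, plus strand) none. The *S1PR1* window held 2, and of it only the stretch between them is shown (chr1:101236877-101236903, plus strand, 27 bases that end 115 bases before the RefSeq start). The annotations differ here, since GENCODE starts *S1PR1* at 101236865, so the stretch is upstream of the RefSeq start and inside the GENCODE gene. These matches describe letters and are no measure of binding.

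CXCR3: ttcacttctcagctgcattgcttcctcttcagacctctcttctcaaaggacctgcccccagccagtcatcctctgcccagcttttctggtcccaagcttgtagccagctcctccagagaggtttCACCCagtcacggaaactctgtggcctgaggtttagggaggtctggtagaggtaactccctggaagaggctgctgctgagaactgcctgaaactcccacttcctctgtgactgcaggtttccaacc

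S1PR1: CACCCagccttggcgcggcgctGGGTG

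KLF2: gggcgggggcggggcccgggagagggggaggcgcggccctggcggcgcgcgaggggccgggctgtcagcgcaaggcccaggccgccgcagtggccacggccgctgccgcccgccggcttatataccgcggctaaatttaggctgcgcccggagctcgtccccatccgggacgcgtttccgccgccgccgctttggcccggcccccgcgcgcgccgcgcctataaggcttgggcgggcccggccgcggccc

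Between day 10 and day 14 the receptors for thymic and inflammatory chemokines were 5.3 to 8.36 times as high, whereas the selectin ligand and *KLF2* moved by less than 1.5-fold. Of the 7 genes that passed the level filter, 4 were called higher (*CCR9*, *CCR7*, *CXCR4* and *CXCR3*) and 0 lower. Of 10022 genes tested in the same way, 4.05% were called higher and 2.69% lower. The median log2 ratio was 0.94 for the 8 genes and 1.16 for the 7 that passed the filter. That of all genes tested was 0.01.

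*CCR9* (ENSG00000173585, chromosome 3 of GRCh38, 45884425 to 45903174, plus strand), the receptor for the thymic and intestinal chemokine CCL25, had a level of 3.55 CPM (interval 3.3 to 3.82) in the day 10 library. In the day 14 library the level was 27.3 CPM (26.5 to 28.1), a ratio of 7.68 (7.1 to 8.31). Thinned cells with a *CCR9* UMI were 1.9% (1.66 to 2.17) and 10.7% (10 to 11.3) of the respective cells. The gene overlaps *LZTFL1* on the opposite strand, and the strand setting of the counting is not given in the sources used here, so reads of the 2 genes may not have been told apart everywhere. *CCR7* (ENSG00000126353, chromosome 17, 40553769 to 40565472, minus strand), which guides cells to CCL19 and CCL21, had 1 CPM from 210 UMIs at day 10 and 8.37 CPM from 1289 UMIs at day 14, a ratio of 8.36 (7.22 to 9.71). *CXCR4* (ENSG00000121966, chromosome 2, 136114349 to 136119177, minus strand), the CXCL12 receptor that also takes part in the survival of thymocytes at the pre-TCR stage, stood at 20.5 CPM (19.9 to 21.1) and 137 CPM (136 to 139), a ratio of 6.7 (6.49 to 6.93). The share of thinned cells with a *CXCR4* UMI was 8.59% and 36.3%.

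*CXCR3* (ENSG00000186810, chromosome X, 71615916 to 71618511, minus strand), a receptor of effector T and innate-like lymphocytes for interferon-induced chemokines, stood at 16.7 CPM (16.1 to 17.2) and 88.3 CPM (86.9 to 89.8), a ratio of 5.3 (5.11 to 5.5). *CCR4* (ENSG00000183813, chromosome 3, 32951644 to 32956349, plus strand), which marks thymocytes after positive selection and several helper T cell subsets, had 20 UMIs in all day 10 cells and 99 in all day 14 cells. It did not reach the level filter in any comparison, and its ratio of 6.74 had a wide interval (4.14 to 11.5).

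*S1PR1* (ENSG00000170989, chromosome 1, 101236865 to 101243713, plus strand) stood at 7.12 CPM (6.76 to 7.49) and 15.1 CPM (14.5 to 15.7), a ratio of 2.12 (1.98 to 2.26). With 5 CPM added to both levels its log2 ratio was 0.73, short of 2-fold. *SELPLG* (ENSG00000110876, chromosome 12, 108621895 to 108633894, minus strand) stood at 66 and 94.3 CPM, a ratio of 1.43 (1.4 to 1.46), and overlaps an unnamed gene on the opposite strand. *KLF2* (ENSG00000127528, chromosome 19, 16324826 to 16328685, plus strand) stood at 116 and 133 CPM, a ratio of 1.15 (1.13 to 1.17), while the share of thinned cells with a *KLF2* UMI was 33.6% and 31.3%. Every one of the 8 genes thus had a higher summed level at day 14, by amounts that set the chemokine receptors apart from *SELPLG* and *KLF2*.

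**Figure D1:**
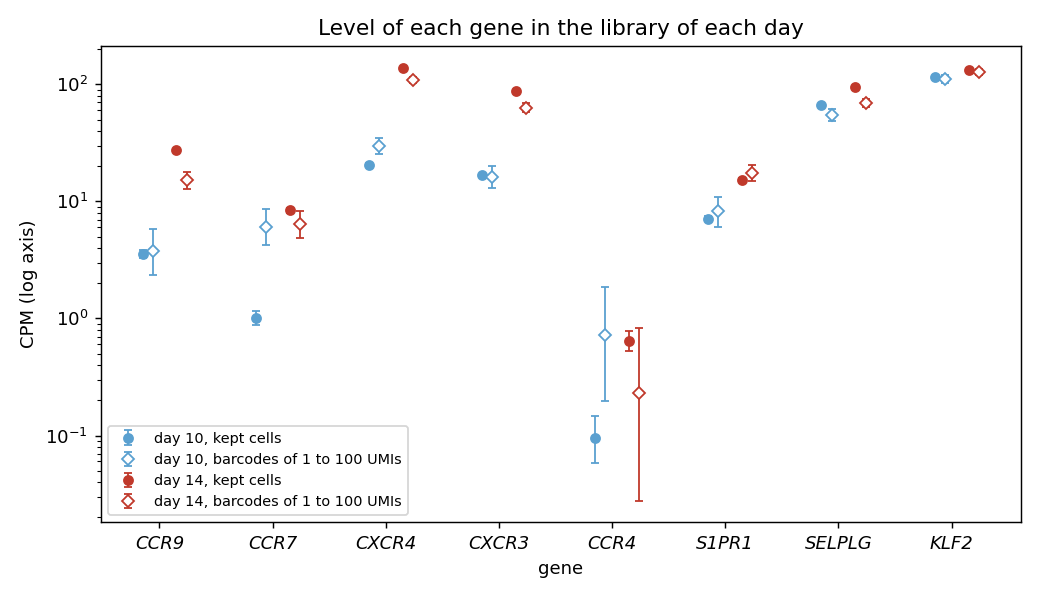
The plot shows the CPM of each gene on a log axis in the library of day 10 (blue) and day 14 (red), in kept cells (filled circles) and in barcodes of 1 to 100 UMIs, which carry mostly free RNA (open diamonds), with exact Poisson 95% intervals. *CCR9*, *CCR7*, *CXCR4* and *CXCR3* were 5.3 to 8.36 times as high in day 14 cells, and *KLF2* stood near the same level on both days.

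Free RNA was not without these transcripts. Barcodes of 1 to 100 UMIs held *CXCR4* at 29.8 and 109 CPM on the 2 days, and *KLF2* at 111 and 127 CPM. Its amount in cells was read from genes that a cell type should lack. In day 14 CD8B+ RAG1+ cells (defined below by these UMIs), the cytotoxic granule gene *GNLY* stood at 1.81% of its level in those barcodes. At that share, free RNA would bring 1.98 CPM of *CXCR4* where 203 CPM were found, 2.3 CPM of *KLF2* where 35.7 CPM were found, and 1.15 CPM of *CXCR3* where 15.3 CPM were found. Among HLA-DRA-high cells of day 10, in which all 5 monocyte markers and all 5 dendritic markers stood at 10 CPM or more, *CD3D* was at 15.4% of its free level. There *CCR9* (1.14 CPM against 0.58 CPM at that share) and *S1PR1* (0.696 against 1.27 CPM) were near what free RNA would bring. After thinning, 0.586% of these cells had a *CCR9* UMI and 0.503% an *S1PR1* UMI, from a median of 14679 UMIs before thinning, against 16174 for all day 10 cells. The shares of 1.81% and 15.4% are rough estimates. Doublets were called for 13.9% of the HLA-DRA-high cells and may also bring *CD3D*. Cells with *GNLY* at 1000 CPM or more had been taken out before the CD8B+ RAG1+ group was formed.

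To see which cells carried the transcripts, the cells of each day were split into groups that do not overlap. GNLY-high cells (*GNLY* at 1000 CPM or more of their own UMIs) and HLA-DRA-high cells (likewise for *HLA-DRA*) were taken first. The others were split by a UMI of *CD34*, a marker of blood progenitors, of *CD3D*, a chain of the T cell receptor complex, of *CD8B*, a chain of the CD8 coreceptor, and of *RAG1*, which rearranges the receptor genes. At day 10, 73 cells were CD34+ CD3D-, 1170 were CD34+ CD3D+, 7838 were CD3D+ without *CD34* and *CD8B*, 284 were CD8B+ RAG1+, 1127 were CD8B+ RAG1-, 249 were GNLY-high and 1210 were HLA-DRA-high. At day 14 the last 5 of these groups held 1378, 2888, 2912, 1695 and 8 cells, and 43 cells were CD34+ CD3D+. Of the 7 T cell markers, 6 stood at 10 CPM or more in CD34+ CD3D+ and in CD8B+ RAG1+ cells of day 10, and all 7 in the CD8B+ groups of day 14. GNLY-high cells had all 6 cytotoxic and all 7 T cell markers at that level on both days.

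In the 4 groups with at least 50 cells on both days, *CXCR4* was 3.75 to 6.33 times as high at day 14 and *CCR9* 3.32 to 8.29 times. The step of *CXCR3* was 9.53-fold in CD3D+ cells without *CD34* and *CD8B* (16.3 to 155 CPM) and 2.09-fold in CD8B+ RAG1+ cells (7.32 to 15.3 CPM). *SELPLG* was 1.13 to 1.32 times as high. *KLF2* differed in direction between groups. It was 1.41 times as high at day 14 in CD3D+ cells without *CD34* and *CD8B* (interval 1.36 to 1.46) and at 0.404 of its day 10 level in CD8B+ RAG1+ cells (0.365 to 0.448), where it passed from 88.3 to 35.7 CPM. *RAG1* itself stood at 84.5 and 202 CPM in these cells on the 2 days, and the part of this difference in the gate gene was not tested.

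CD34+ cells are the population in which thymus-seeding progenitors are sought. Against all other cells of day 10, *CXCR3* (4.74 against 18.3 CPM) and *KLF2* (46.6 against 126 CPM) were called lower in the 1285 CD34+ cells, and none was called higher. Of 9945 genes tested, 1.73% were called lower and 1.89% higher. *SELPLG* stood at 34.8 against 70.3 CPM, a ratio of 0.495 (0.462 to 0.53) that missed 2-fold with 5 CPM added. *CXCR4* stood at 12.8 against 21.6 CPM, and *S1PR1* at 5.13 against 7.39 CPM. *CCR9*, *CCR7* and *CCR4* lay under the level filter. Their UMIs in CD34+ cells were 33, 29 and 0, and the level of *CCR9* was 0.337 of that in other cells (0.23 to 0.478), while *CCR7* stood at 1.14 and 0.982 CPM.

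At 5000 UMIs few CD34+ cells of day 10 showed more than 1 homing transcript. Of the 1272 CD34+ cells of day 10 thinned to 5000 UMIs, 80.9% had no UMI of *CCR9*, *CCR7*, *CXCR4* or *SELPLG*, 18.2% had a UMI of 1 of these genes and 0.865% of 2 (interval 0.432 to 1.54). None had a UMI of 3 or 4 at this depth. These are shares of cells with a UMI, not of cells expressing the genes, and they rest on the depth. In unthinned CD34+ cells of day 10, of a median 17821 UMIs, *SELPLG* had a UMI in 40.8% and *CXCR4* in 15.5%. Of 6192 thinned CD8B+ cells of day 14, 28.6% showed none, 47.4% showed 1, 21.9% showed 2, 2.05% showed 3 and 0.0484% all 4. CD8B+ cells of day 10 lay between, with 59.1%, 35.1% and 5.83% for 0, 1 and 2 genes. The 45 CD34+ cells of day 14 had larger shares than those of day 10 at this depth. A *CCR9* UMI was found in 8.89% of them (interval 2.48 to 21.2) against 0.472% at day 10. For *CXCR4* the shares were 28.9% and 5.42%, for *SELPLG* 33.3% and 13.3%, and for *CCR7* 2.22% (1 cell) and 0.786%.

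Within the CD34+ cells of day 10 *KLF2*, *SELPLG* and *CXCR3* were higher at high *CD3D* than at low. For *CXCR4* this held only without cells that had endothelial transcripts. The few cells with little *CD3D* were of more than one kind, since all 3 endothelial markers and all 5 erythroid, megakaryocyte and mast cell markers stood at 10 CPM or more in the 73 CD34+ CD3D- cells. All 33 *CXCR4* UMIs of these cells, and all 6 of *S1PR1*, were in 14 cells with a UMI of the endothelial genes *CDH5* or *CLEC14A*, and a single cell held 16 of the *CXCR4* UMIs. The other 59 cells had 0 UMIs of either gene, which puts the high *CXCR4* level of the CD34+ CD3D- group (33.9 CPM) in the cells with endothelial transcripts alone. With such cells included, *CXCR4* stood at 16.7, 3.72, 11.3, 11.8 and 17.6 CPM over the rising steps of *CD3D* used below. *S1PR1* stood at 6.83, 0.465, 4.67, 5.31 and 7.4 CPM, and neither had a steady direction. Cells with a *CDH5* or *CLEC14A* UMI were left out of the following steps, a choice made after seeing the data.

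In the remaining CD34+ cells, *KLF2* stood at 16.9 CPM (12.1 to 22.9) where *CD3D* was under 250 CPM, at 22.8, 29.1 and 44.8 CPM in the next 3 steps of *CD3D*, and at 96.2 CPM (86.6 to 107) where *CD3D* was at 1500 CPM or more. The intervals of the first 3 steps overlap with their neighbours, and those of the last 3 do not overlap. *SELPLG* stood at 17.7 CPM in the lowest step and 57 CPM in the highest. *CXCR4* went from 0.411 CPM (1 UMI in 151 cells) to 17.8 CPM, with 3.89, 10.5 and 11.8 CPM in between. *CXCR3* had 0 UMIs in the lowest step and stood at 12.3 CPM in the highest. *CCR9* had 0 UMIs in the lowest step, and its 2.61 CPM in the highest came from 10 UMIs, so that its neighbouring steps overlap. *CCR7* had at most 11 UMIs in any step and showed no order, and *CCR4* had none at all.

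**Figure D2:**
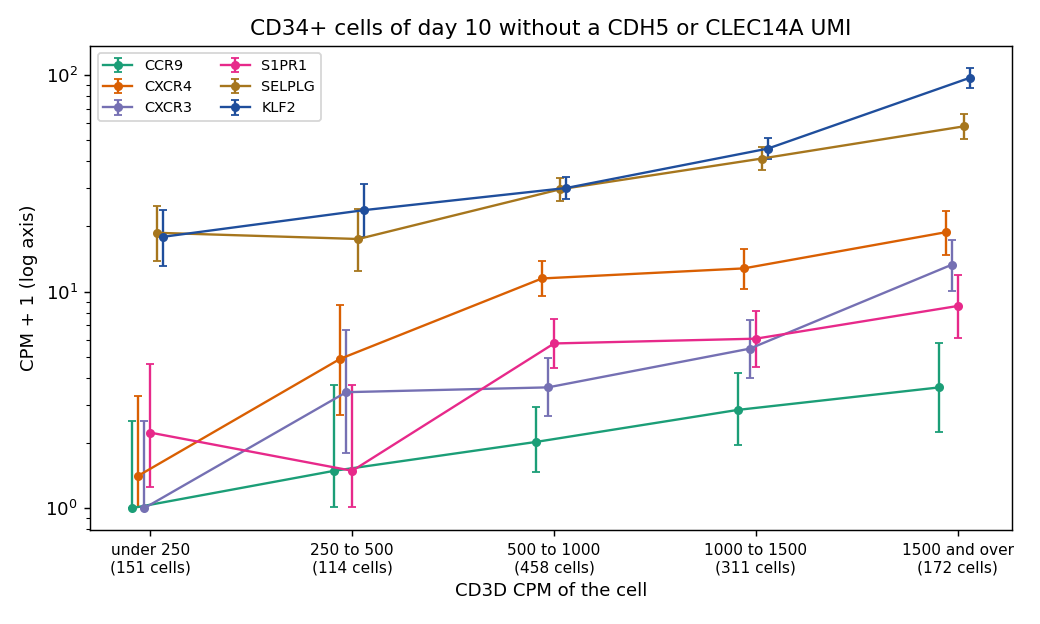
Plotted are CPM + 1 on a log axis, with exact Poisson 95% intervals, for 6 genes in CD34+ cells of day 10 without a *CDH5* or *CLEC14A* UMI, GNLY-high and HLA-DRA-high cells left out, by the *CD3D* level of the cell. *KLF2* went from 16.9 to 96.2 CPM and *SELPLG* from 17.7 to 57 CPM, and *CCR9* remained under 3 CPM.

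*CD3D* as a gate gave a different picture. Among day 10 cells, *S1PR1* (7.55 against 0.758 CPM, the latter from 10 UMIs) and *KLF2* (121 against 48.7 CPM) were called higher in CD3D+ cells and none was called lower, beside 6.10% and 9.27% of the 10327 genes tested. *SELPLG* stood at 66.2 and 63.1 CPM, and *CXCR3* at 16.5 and 19.6 CPM. The 980 cells without *CD3D* differed in kind. HLA-DRA-high cells held *S1PR1* at 0.696 CPM, *KLF2* at 56.9 CPM, *CXCR3* at 26.5 CPM and *SELPLG* at 74.2 CPM. The median log2 ratio of genes at 50 CPM or more was 0.24 in this comparison, and relative to it neither of the 2 calls held. *CCR7* in HLA-DRA-high cells came almost wholly from single cells, since 1 cell held 37 of 48 UMIs at day 10 and 1 cell held all 12 at day 14. *CXCR3*, in contrast, had a UMI in 339 of the 1210 HLA-DRA-high cells of day 10.

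At day 14 the 8 genes parted along *RAG1*. *CCR7* (2.32 against 12 CPM), *CXCR3* (23.5 against 127 CPM) and *KLF2* (45.1 against 186 CPM) were called lower in the 3206 RAG1+ cells and none was called higher, beside 1.95% and 1% of the 9794 genes. *CXCR4* was the one receptor that stood well above the other cells, at 196 against 103 CPM, a ratio of 1.91 (1.86 to 1.96) that stayed under 2-fold. *S1PR1* stood at 9.05 against 18.7 CPM, *CCR9* at 21.1 against 31 CPM and *SELPLG* at 105 against 87.9 CPM. The comparison of CD8B+ with other cells called the same 3 genes. *CCR7* (5.49 against 18.6 CPM), *CXCR3* (60.2 against 188 CPM) and *KLF2* (101 against 249 CPM) were called lower in CD8B+ cells and none higher, beside 2.25% and 1.07% of 9879 genes. *CXCR4* stood at 155 against 75 CPM and, with 5 CPM added, lay just under 2-fold. *CCR9*, lower in RAG1+ cells (ratio 0.681, interval 0.637 to 0.729), was on the other side here, at 28.2 against 23.9 CPM (ratio 1.18, interval 1.09 to 1.28).

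Finer steps were taken within the CD8B+ cells, GNLY-high and HLA-DRA-high cells left out, by their *RAG1* UMIs out of 5000. From 0 to 1, 2 and 3 or more *RAG1* UMIs, in 3918, 861, 400 and 468 cells, *KLF2* stood at 107, 31.6, 22.7 and 12.1 CPM, and no interval overlapped the next. *CXCR3* stood at 60.1, 16.1, 7.72 and 4.15 CPM, with overlap between the last pair. *CXCR4* ran against them with 138, 209, 210 and 271 CPM, the middle steps being alike within counting error. *SELPLG*, at 88.9, 103, 107 and 141 CPM, went the same way as *CXCR4* in smaller steps. *S1PR1* stood at 12.7 CPM without *RAG1* and between 6.9 and 8.29 CPM with it. *CCR9* had no single direction, with 31.6, 19.7, 18.1 and 31.6 CPM.

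**Figure D3:**
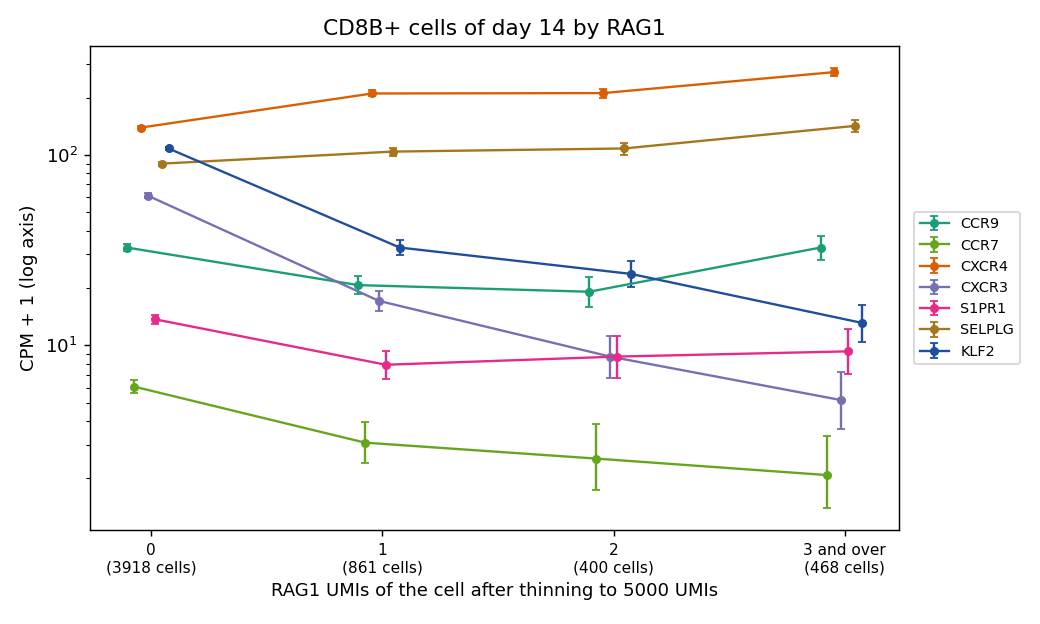
The plot shows CPM + 1 on a log axis, with exact Poisson 95% intervals, for 7 genes in CD8B+ cells of day 14 by the number of *RAG1* UMIs left after each cell was thinned to 5000 UMIs. *KLF2* went from 107 to 12.1 CPM and *CXCR3* from 60.1 to 4.15 CPM, while *CXCR4* went from 138 to 271 CPM.

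GNLY-high cells, defined by a cytotoxic granule gene, held the egress genes *KLF2* and *S1PR1* at their highest among the 4 larger groups of day 14. *KLF2* stood at 320 against 102 CPM in other day 14 cells, a ratio of 3.14 (3.05 to 3.23), and *S1PR1* at 31.3 against 12.4 CPM, a ratio of 2.52 (2.3 to 2.76). *CXCR3* stood at 230 against 64.8 CPM and *CCR7* at 24 against 5.78 CPM. These 4 were called higher and 1, *CCR9*, was called lower (11 against 30 CPM), beside 3.78% and 1.72% of 9964 genes, where the median log2 ratio of genes at 50 CPM or more was -0.11. After thinning, a *CXCR3* UMI was found in 65.7% of GNLY-high cells and in 4.61% of CD8B+ RAG1+ cells of that day, with medians of 11243 and 15982 UMIs before thinning. At day 10 the 249 GNLY-high cells likewise had the highest levels of *KLF2*, *S1PR1* and *CXCR3* among the groups, at 345, 22.5 and 108 CPM. Along *GNLY* at day 14 *CXCR3* stood at 55 CPM under 100 CPM of *GNLY*, at 116 CPM between 100 and 300, at 209 CPM between 300 and 1000, and at 233 CPM at 3000 CPM or more. *CCR9* had no steady direction, with 29.4 CPM (28.4 to 30.4) in the lowest step, 38.4 CPM (34.6 to 42.5) in the next, then 27.2 and 17.1 CPM, and 9.12 CPM (7.74 to 10.7) in the highest. *CD69*, whose product pulls S1PR1 from the cell surface, was also highest in GNLY-high cells of day 14, at 321 CPM. It stood at 232 CPM in CD3D+ cells without *CD34* and *CD8B*, 158 CPM in CD8B+ RAG1- and 68.2 CPM in CD8B+ RAG1+ cells. Near the limit of the class, 162 day 14 cells lay between 500 and 1000 CPM of *GNLY* and 176 between 1000 and 2000.

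The order of the groups differed from gene to gene. *KLF2* at day 14 ran from CD8B+ RAG1+ (35.7 CPM) over CD8B+ RAG1- (132 CPM) and CD3D+ cells without *CD34* and *CD8B* (185 CPM) to GNLY-high cells (320 CPM), with no overlap of intervals, and *S1PR1* (7.9, 14.4, 18.4 and 31.3 CPM), *CXCR3* (15.3, 77.5, 155 and 230 CPM) and *CCR7* (1.75, 6.48, 13.5 and 24 CPM) had this order too, again without overlap. *CXCR4* had 203, 121, 82.4 and 81.6 CPM in these groups, and the intervals of the last pair overlapped. *CCR9* had 20.6, 36.9, 34.4 and 11 CPM, and the intervals of the middle pair overlapped. *SELPLG* varied least, with 105, 85.9, 81.9 and 103 CPM.

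The link of *KLF2* with *S1PR1* was also looked at cell by cell, with GNLY-high and HLA-DRA-high cells left out. In day 14 cells with 0, 1, 2 and 3 or more *KLF2* UMIs of 5000, *S1PR1* stood at 8.66, 17.7, 27.4 and 31.9 CPM, *CXCR3* at 45.8, 105, 128 and 151 CPM and *CCR9* at 23.8, 40.2, 53.3 and 59 CPM. *CXCR4* stood at 164, 114, 76.4 and 76.1 CPM. *S1PR1* had the same order at day 10, with 5.58, 9.42, 11.9 and 17.6 CPM, and so did *CXCR3*, with 11.3, 16, 21.1 and 29.6 CPM. Counted as cells, 185 thinned day 14 cells had UMIs of both *KLF2* and *S1PR1*, which is 1.72 times the number that independent detection would give, and the factor was 1.81 for *KLF2* with *CXCR3*, 0.649 for *KLF2* with *CXCR4* and 0.562 for *CXCR4* with *CXCR3*. These figures mix cells of different stages. The *KLF2* steps and the counts of cells were read after thinning, whereas the levels in CPM use all UMIs of the cells.

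At day 14 *CCR9*, *SELPLG* and *S1PR1* differed by the state of the cell cycle. In all 4 of the larger groups of day 14 *CCR9* was higher in cells without a UMI of the division genes *MKI67* and *TOP2A*. In CD8B+ RAG1- cells it stood at 75.8 CPM (70.9 to 80.8) without such a UMI and 26.7 CPM (25.2 to 28.2) with one. In CD8B+ RAG1+ cells the levels were 42.5 and 16.3 CPM, in CD3D+ cells without *CD34* and *CD8B* 50.7 and 27 CPM, and in GNLY-high cells 14.8 and 8.66 CPM. Day 10 showed the same side in CD8B+ RAG1- cells (12.9 against 3.84 CPM) and in CD3D+ cells without *CD34* and *CD8B* (8.87 against 3.62 CPM), while the intervals overlapped in CD34+ CD3D+ cells (3 and 30 UMIs), in GNLY-high cells (2 and 7) and in HLA-DRA-high cells (6 and 17). *SELPLG* was 1.32 to 1.48 times and *S1PR1* 1.23 to 1.48 times as high without such a UMI in the 4 groups of day 14, with every interval above 1, against 1.71 to 2.84 times for *CCR9*. *CXCR3* had such intervals in 3 of the 4 groups, and so did *KLF2*, both with the exception of CD8B+ RAG1+ cells. *CXCR4* went the other way in CD8B+ RAG1+ cells of day 14, with 159 CPM without and 211 CPM with such a UMI. The same side was seen in CD8B+ RAG1- cells of day 14 (ratio 0.928, interval 0.875 to 0.985). At day 10 it was seen in CD34+ CD3D+ cells (0.5, 0.317 to 0.755) and in HLA-DRA-high cells (0.647, 0.476 to 0.869). In the other groups compared the interval of *CXCR4* held 1. At day 10 no interval of *S1PR1* left out 1. *SELPLG* then had a ratio, without over with such a UMI, of 0.8 (0.65 to 0.977) in CD34+ CD3D+ cells. Its ratio was 1.21 in CD3D+ cells without *CD34* and *CD8B*, 1.22 in CD8B+ RAG1- cells and 1.6 in GNLY-high cells, each with an interval above 1. In HLA-DRA-high cells it was 0.94 (0.838 to 1.05). Cells with a UMI of either division gene were 81.1% of all cells at day 10 and 65.7% at day 14. A deeper cell more easily shows such a UMI, and the part of depth in these values was not tested.

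Other genes of these pathways, from lists made with earlier results known, were compared between the days, beside the 4.05% and 2.69% of all genes called. Of 17 further chemokine receptors 4 passed the level filter and 2 were called higher. These were *CXCR6*, a receptor of tissue-resident and innate-like T cells (11.4 and 59.6 CPM), and *CCR1* (5.75 and 21.1 CPM), a receptor for inflammatory chemokines. None of the 9 ligand genes passed, and 1 had no UMI at all. Among 13 genes of S1P receptors and S1P handling 6 passed and 1 was called higher, *CD69*, whose product pulls S1PR1 from the cell surface (60.4 and 160 CPM). Of 11 genes for selectins and the sugar and sulfate groups of PSGL-1, 8 passed and none was called, with *TPST2*, a tyrosine sulfotransferase, at 36.2 and 76.7 CPM. Of 12 genes of the KLF family and its FOXO regulators 8 passed and 1 was called higher, *KLF13* (69.1 and 154 CPM). Of 23 genes of receptor signaling and migration 22 passed and 1 was called higher, *GNG2*, a G protein subunit (31.7 and 80.3 CPM). None of these genes was called lower. The median log2 ratios of the 6 lists, over all their genes, lay between -0.06 for the ligands and 0.55 for signaling.

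Genes most like each of the 8 over 12 groups of both days (Pearson r of log2 levels among 7805 genes, a description over points that share libraries) were also listed. *CCR9* was most like *COX6C* (r = 0.975), *LZTFL1* (0.967), its overlapping neighbour, and *DCTN6* (0.964). *CXCR4* was most like *GRK5* (0.958), a kinase of G protein-coupled receptors, *MAL* (0.954) and *CD2AP* (0.950). *CXCR3* went with *CD52* (0.990), *RNF125* (0.982) and *RHOF* (0.966), and *CCR7* with *PRKAR1A* (0.985) and *STK4* (0.984), among others. *KLF2* went with *PPP1R15A* (0.972), *TNFRSF18* (0.958) and *COQ7* (0.949), and *S1PR1* with *SSR2* (0.975), *KIF2A* (0.972) and *SLFN5* (0.964). *SELPLG* went with *PHF11* (0.966) and *PSMB10* (0.965), among others, and *CCR4*, from few UMIs, with *S100P* (0.936), *SLC35E1* (0.936) and *CRTAM* (0.933). Among the 8 genes themselves, r was 0.94 for *CCR7* with *CXCR3*, 0.85 for *CXCR3* with *KLF2*, 0.77 for *S1PR1* with *KLF2*, 0.84 for *CCR9* with *CXCR4* and 0.04 for *CXCR4* with *KLF2*.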

How the data were processed

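The deposited values are counts of UMIs, whole numbers for 36601 genes and for all barcodes, cells or not. They were made by the authors with Cell Ranger 4.0.0 on GRCh38, per the submitters' processing notes, from libraries labelled as 10x 3' v2. The libraries list 2759529 and 3229665 barcodes, and the kit is given as labelled, without a check. Cell limits follow the study's methods, whose 1000 to 7000 detected transcripts were read as detected genes. Doublets were kept, and leaving out the 1174 and 638 highest Scrublet scores (scanpy 1.11.5) was an alternative, since its automatic threshold marked 0 cells at day 14. Counts were summed over cells and divided by the summed UMIs (Python 3.11.15, numpy 2.4.6, scipy 1.17.1, pandas 2.3.3), and the ratio step was tested on simulated data. Gene positions come from GENCODE v44 by gene ID. RefSeq promoters were found for 6 of the 8 genes. Groups were formed after the labels' day and gate genes. The 8 genes, the lists and the settings were chosen with earlier results of these data known. Pathway genes were named if at 20 CPM or more in a library and past 2-fold, and *TPST2*, *CDH5* and *CLEC14A* after their values were seen. Finer steps along *CD3D*, *RAG1*, *KLF2* and *GNLY* and the cell cycle split were also added then. A few genes that these rules name are not reported here.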

Additional observations from a re-analysis of the deposited data

Results flagged for a closer look

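*KLF2* was the one gene of the 8 whose ratio of day 14 to day 10 lay on opposite sides of 1 in different groups of cells, each with an interval that leaves out 1. It was 1.41 in CD3D+ cells without *CD34* and *CD8B*, and 0.404 in CD8B+ RAG1+ cells, 0.955 in CD8B+ RAG1- cells and 0.927 in GNLY-high cells. The difference between the groups was not tested, since each group had 1 library per day and the intervals cover counting error only.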

How the results depend on the processing

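No called value changed sign under the 17 alternatives, and between the days the count of genes called stayed within 1.5 times. Of 568 log2 ratios of single genes under them, 407 moved by less than their counting error. Leaving out cells with a *CDH5* or *CLEC14A* UMI, chosen after seeing the data, moved no count. The median log2 ratio of the 8 genes, 0.94, was 1.61 with 1 CPM and 0.42 with 20 CPM added, 1.02 with 10% free RNA subtracted, 0.69 without GNLY-high and HLA-DRA-high cells and 1.25 without cells holding an *MKI67* or *TOP2A* UMI. *CXCR4* became the 1 gene called higher in CD8B+ cells with 1 CPM added, with at least 2000 detected genes, without doublet calls and with 10% free RNA subtracted. With 20 CPM added, 1 gene in place of 2 was lower in CD34+ cells, 1 in place of 2 higher in CD3D+ cells, 2 in place of 4 higher and 0 in place of 1 lower in GNLY-high cells. Scaling by the median ratio left 0 higher in CD3D+ cells. Without cycling cells 4 were lower in CD34+ cells (*CCR9*, *CXCR3*, *SELPLG* and *KLF2*), and with *GNLY* at 300 CPM 0 were lower in GNLY-high cells. No paired analysis was possible because each day has 1 library, and none could be left out for the same reason. Depth limits *CCR4* most, with 20 UMIs at day 10.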
